A study of Mus musculus with 20 samples.

Results

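Globin transcripts divided the 10 Py8119 tumors of this study into globin-high and globin-low tumors. For the RNA of the whole tumor homogenate (input), the counts of Hbb-bt, Hbb-bs, Hba-a1 and Hba-a2, scaled to library size as CPM, were taken on the log2 scale and averaged per tumor, and the members of each class were chosen by this measured mean. A mean of 5 or more was called globin-high, which held for 4 of 10 tumors, and the other 6 were called globin-low. Of the 20 libraries of the series, the 10 input libraries made this comparison, and the 10 libraries of the endothelial fraction (IP) of the same tumors were set beside them.

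The tumors were grown from Py8119 murine breast carcinoma cells, implanted at 8 weeks of age in female C57BL/6J mice of genotype Rpl22HA/HA x Cdh5CreERT2 (RiboTagEC). All mice, controls included, carried the HA-tagged ribosomal protein allele and a Cre under the Cdh5 promoter, active in endothelial cells, and received tamoxifen (75 mg/kg for 5 days from 3 weeks of age). The treatment groups of 5 tumors each were given 25 mg/kg of the Notch4 antibody 6-3-A6 or of control mouse IgG for 10 days, from a tumor volume given as 30 mm3 in the sample labels and as 50 mm3 in the series' design text. The IP fraction is the RNA recovered with HA-tagged endothelial ribosomes from the same homogenate. The globin-high tumors were control IgG 3 and 6-3-A6 1, 2 and 3, so 1 control IgG and 3 6-3-A6 tumors. The globin-low tumors were control IgG 1, 2, 4 and 5 and 6-3-A6 4 and 5.

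Hemoglobin carries oxygen as a tetramer of alpha and beta chains, which in adult C57BL/6 mice are made from Hba-a1 and Hba-a2 and from Hbb-bs and Hbb-bt. The genes are transcribed at very high rate in erythroid precursors of marrow and spleen, where GATA1 and KLF1 act on GATA and CACCC motifs, and the youngest red cells in blood, the reticulocytes, still hold their mRNA. Mature red cells have no nucleus and few transcripts. Globin and red cell membrane transcripts are therefore familiar in RNA of tissues that contain blood, and alpha globin has also been described in endothelial cells.

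The promoters of the 4 globin genes that define the classes, and of Apol11b, whose values were apart between the classes in both fractions, are shown as the 110 bases before the transcription start (RefSeq, GRCm38.p6). Capitals mark the CCAAT box, the CACCC box, the TATA box (searched as TATAA) and the GATA site, searched as GATA with A or T before it and A or G after it, each on both strands.
Hbb-bt (chr7:103813924-103814033, minus strand): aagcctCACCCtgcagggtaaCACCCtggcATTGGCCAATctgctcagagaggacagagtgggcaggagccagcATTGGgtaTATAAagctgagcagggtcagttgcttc
Hbb-bs (chr7:103827929-103828038, minus strand): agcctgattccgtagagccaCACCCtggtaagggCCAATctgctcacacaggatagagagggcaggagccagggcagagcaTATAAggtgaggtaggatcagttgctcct
Hba-a1 (chr11:32283562-32283671, plus strand): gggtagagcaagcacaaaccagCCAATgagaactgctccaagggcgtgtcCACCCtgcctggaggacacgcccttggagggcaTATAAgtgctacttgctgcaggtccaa
Hba-a2 (chr11:32296382-32296491, plus strand): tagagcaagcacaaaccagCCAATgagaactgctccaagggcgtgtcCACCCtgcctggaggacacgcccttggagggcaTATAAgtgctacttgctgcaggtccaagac
Apol11b (chr15:77643287-77643396, minus strand): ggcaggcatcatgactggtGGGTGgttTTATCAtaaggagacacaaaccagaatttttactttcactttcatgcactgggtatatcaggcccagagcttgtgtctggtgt
All 4 globin windows held a CCAAT box, a CACCC box and a TATA box. Among 32851 RefSeq promoter windows of the same length, 20.2% held a CCAAT box, 29.6% a CACCC box, 10.9% a TATA box and 11.5% a GATA site. The Apol11b window held a CACCC box and a GATA site, both on the other strand. The alpha globin windows were nearly the same sequence, with a shared run of 107 bases, whereas the longest run shared by Hbb-bs and Hbb-bt was 14 bases. These runs lie in promoters and do not show how reads divide between genes. Hba-a1 and Hba-a2 are near-identical genes, so the division of reads between them is uncertain. The division between Hbb-bs and Hbb-bt was not tested.

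Gene counts totaled 11881200 to 26728200 per input library and 15589400 to 22790800 per IP library, and 3 counts, the upper limit that a count of 0 allows, corresponded to between 0.112 and 0.252 CPM in input. The input library of 6-3-A6 4 stood apart from the rest. In it 38.2% of counts fell on mitochondrially encoded genes, against 6.90 to 17.2% in the other 9, Pecam1 was at 26.6 CPM against 45.1 to 68.3 CPM, and it held 29.5 Hbb-bs counts for every Hbb-bt count, against 4.16 to 10.3. That ratio rested on 443 Hbb-bs and 15 Hbb-bt counts. The number of calls over all genes, the list medians and the counts of list members at an unadjusted p under 0.05 are therefore given with and without this tumor in input, each over the list members tested in that fit, as are the values of many single genes. In IP, Pecam1 was at 204 CPM in 6-3-A6 2 and 340 CPM in control IgG 4, against 585 to 1590 CPM in the other 8, so these libraries had the least endothelial RNA. Pecam1 was thus higher in every IP library than in every input library. Krt8, a keratin of carcinoma cells, was at 69.6 to 199 CPM in input, and Epcam, an epithelial adhesion molecule, at 1.75 to 7.02 CPM.

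The mean globin level in input was 7.09 ± 0.329 (SD, n = 4) in globin-high and 2.94 ± 1.02 (SD, n = 6) in globin-low tumors on the log2 CPM scale, values which the rule itself set apart. The highest globin-low tumor, control IgG 4, was at 4.24 and the lowest globin-high tumor, 6-3-A6 3, at 6.61, so a gap of 2.37 around the threshold held no tumor. The 4 genes made up 0.0523 to 0.102% of all counts in globin-high and 0.00302 to 0.0111% in globin-low libraries.

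**Figure D1:**
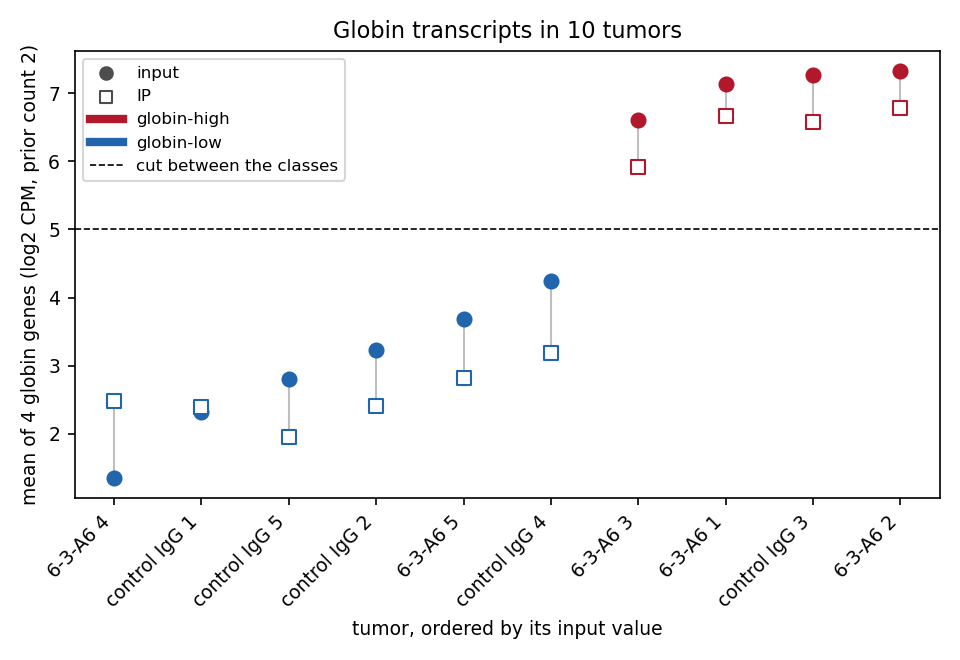
Mean log2 CPM of Hbb-bt, Hbb-bs, Hba-a1 and Hba-a2 for each tumor, ordered by its input value, with input as filled circles and IP as open squares joined by a line. The dashed line marks the threshold of 5. The 4 globin-high tumors lie between 6.61 and 7.33 in input, and 6-3-A6 4, the lowest in input at 1.35, is the tumor whose IP value is farthest above its input value.

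Hbb-bs, an adult beta globin gene, was at 466 CPM in control IgG 3 and at 518, 653 and 312 CPM in 6-3-A6 1, 2 and 3. In the globin-low tumors its lowest value was 21.9, the median 35.5 and the highest 68.1 CPM. Hba-a1, an adult alpha globin gene, was at 137, 105, 119 and 80.1 CPM in the same 4 tumors, against 1.37, 6.63 and 14.7 CPM (lowest, median, highest). All 4 genes were thus present in every input library, and 6-3-A6 3 was the lowest of the globin-high tumors for each of them. Hbb-bt ranged from 74.5 to 112 CPM in globin-high and from 1.21 to 14.2 CPM in globin-low tumors, and Hba-a2 from 48.2 to 80.6 CPM and from 0.484 to 9.50 CPM. Of the 6 other globin genes in the table (Hbb-y, Hbb-bh1, Hbb-bh2, Hba-x, Hbq1a and Hbq1b), which include the embryonic globins, 0 had enough counts to be tested, and 3 were at 0 in every library.

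The same classes were visible in the IP fraction, which had not been used to define them. The mean of the 4 genes was 6.49 ± 0.391 (SD, n = 4) in globin-high and 2.54 ± 0.421 (SD, n = 6) in globin-low tumors, a difference of 3.95 on the log2 scale. Because the IP library came from the homogenate that gave the input library, this was a repeat measurement of the same genes in the same tumors and not an independent sample, so the IP values of the 4 genes are a description. In IP, Hbb-bt was at 76.0 CPM in control IgG 3 and at 73.3, 72.8 and 49.3 CPM in 6-3-A6 1, 2 and 3, and between 2.11 and 6.20 CPM in globin-low tumors. In 8 of 10 tumors the mean globin level was 0.48 to 1.05 lower in IP than in input. The exceptions were control IgG 1, where IP was 0.08 higher, and 6-3-A6 4, where it was 1.12 higher.

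Globin class and treatment were not balanced. In input the mean level was 5.22 ± 2.62 (SD, n = 5) with 6-3-A6 and 3.97 ± 1.98 (SD, n = 5) with control IgG (exact two-sided permutation test, p = 0.429, where 0.00794 is the smallest p possible). With a tumor left out this difference ranged from 0.72 to 2.22, the latter without 6-3-A6 4, and p from 0.111 to 0.675 (exact permutation test), so a difference between the treatment groups was not shown and not excluded. In IP the corresponding values were 4.93 ± 2.12 and 3.30 ± 1.88 (exact permutation p = 0.246, n = 5 each). The treatment group was a covariate in each fit of globin class that follows.

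Over the other genes, 0 of 13968 (0%) passed an adjusted p of 0.05 between globin-high and globin-low input (edgeR quasi-likelihood test, Benjamini-Hochberg adjustment). The smallest adjusted p was 0.0592, 112 genes had an adjusted p under 0.1, and 2422 (17.3%) had an unadjusted p under 0.05, of which 1006 (7.2%) were higher and 1416 (10.1%) lower in globin-high tumors. The count depended on the test, the filter on low counts, the coding of the globin level and 6-3-A6 4. DESeq2 called 714 genes and limma voom with sample weights 29. With edgeR and all 10 tumors, 548 genes were called with no filter on low counts and 431 with the globin level as a continuous term, and including the 4 globin genes in the adjustment gave 8 calls. Without 6-3-A6 4, edgeR called 125 of 13882 genes (0.9%), 32 higher (0.231%) and 93 lower (0.67%), and 52 of these 125 had an adjusted p under 0.1 with all 10 tumors. At an unadjusted p under 0.05, 8.54% of genes were higher and 12.5% lower in that fit, and the classes did not overlap for 4.16% and 2.55%. With each of the other 9 tumors left out in turn, between 0 and 6 genes were called.

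**Figure D2:**
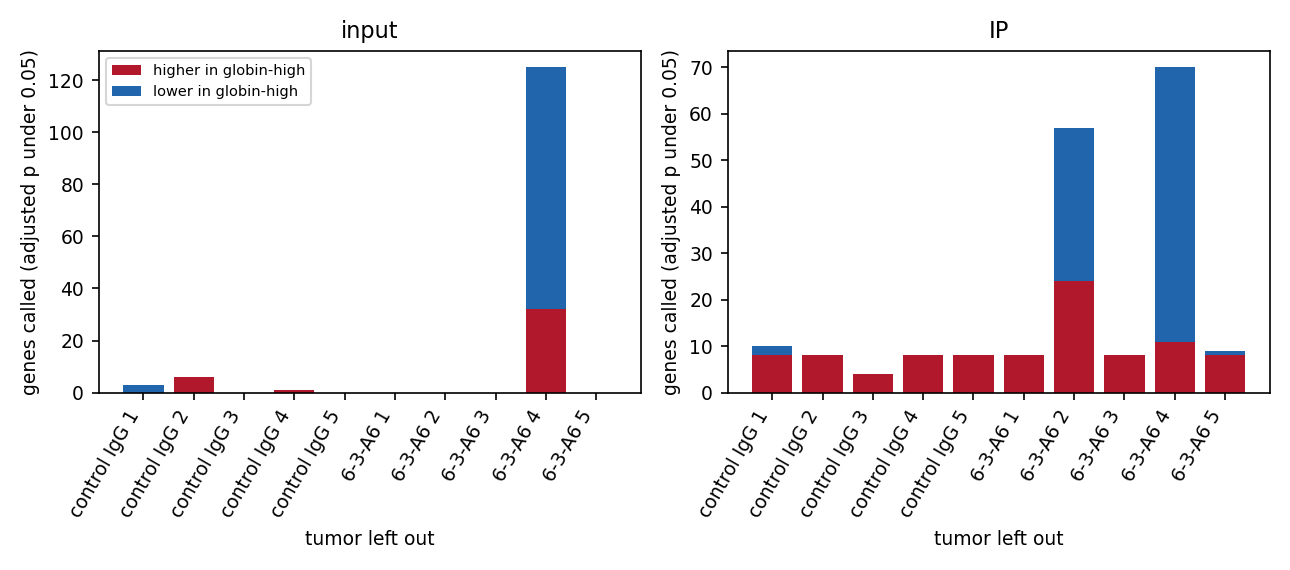
Number of genes with an adjusted p under 0.05 (edgeR) when each tumor is left out, in input (left) and IP (right), with genes higher in globin-high tumors in red and lower in blue. In input, leaving out 6-3-A6 4 gives 125 calls and the others at most 6. In IP, leaving out 6-3-A6 4 gives 70 calls and leaving out 6-3-A6 2 gives 57.

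Slc4a1, Trim10 and Apol11b were at higher CPM in every globin-high than in every globin-low tumor, in both fractions, though only narrowly for Trim10 in IP. Slc4a1, the band 3 anion exchanger of the red cell membrane, was at 25.7 CPM in control IgG 3 and at 15.0, 6.50 and 14.1 CPM in 6-3-A6 1, 2 and 3. In globin-low input its lowest value was 0, the median 0.343 and the highest 2.04 CPM, in control IgG 4, which also had the highest globin level of that class. The classes therefore did not overlap, as for 496 (3.55%) of all genes tested in the higher direction.

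Trim10, a tripartite motif protein known from terminal erythroid differentiation, was at 2.96, 1.58, 1.20 and 1.68 CPM in control IgG 3 and 6-3-A6 1, 2 and 3, and of the 6 globin-low libraries only control IgG 4, at 0.441 CPM, had any count. Apol11b, of the apolipoprotein L family and not on any list, was at 4.79, 4.19, 2.30 and 3.57 CPM against 0 to 0.441 CPM. Apol11b was at 0 in control IgG 1 and 6-3-A6 5. Slc4a1, Trim10 and Apol11b passed the filter on low counts only through the globin-high tumors, so that a gene of this kind had to differ to be tested at all. Their values are a description, and no fold or p is given.

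**Figure D3:**
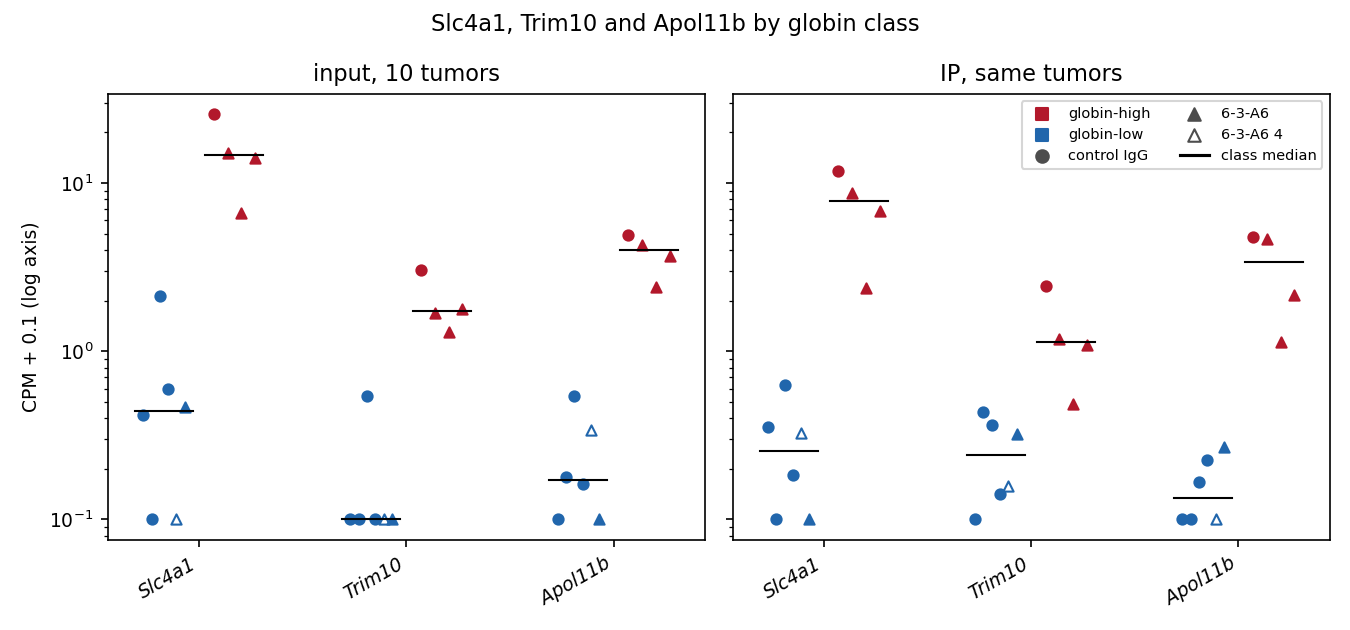
CPM plus 0.1 on a log axis for Slc4a1, Trim10 and Apol11b in input (left) and IP (right), with globin-high tumors in red, globin-low in blue, control IgG as circles and 6-3-A6 as triangles. The open triangle is 6-3-A6 4 and the black bars are class medians. In input the globin-high points lie above all globin-low points for each of the 3 genes.

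The erythroid list as a whole was less uniform. Of its 24 genes 23 were in the count table and 13 had enough counts to be tested. The median log2 difference of these 13 was 0.62, against -0.02 over all genes, 5 had an unadjusted p under 0.05, all higher, and 6 had classes that did not overlap. The median and both counts include genes that passed the filter through the globin-high tumors alone, so they are a description. Without 6-3-A6 4 the median was 0.80 and 7 had an unadjusted p under 0.05, with the same limit. The summed level of the list was 290.4 to 336.4 CPM in globin-high and 175.5 to 233.5 CPM in globin-low input. Epb42, band 4.2, which binds Slc4a1, was too low to be tested but was at 0.487 to 1.52 CPM in globin-high and at or under 0.0736 CPM in globin-low input. The factors of erythroid precursors were near the floor in both classes. Gata1 was at 0.0544 to 0.400 CPM in globin-high and 0.0552 to 0.589 CPM in globin-low input, and Klf1 at 0.0353 to 0.109 CPM and 0 to 0.323 CPM. Alas2, the erythroid enzyme of heme synthesis, was at 0 in every library, but its whole span lies inside another gene of the table and its reads may not have been countable.

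In IP, 8 of 13893 genes (0.0576%) passed the test, all of them higher in globin-high tumors, and they included Hbb-bt, Hbb-bs, Hba-a1, Hba-a2, Slc4a1 and Apol11b. The 4 globin genes among them had chosen the classes in input from the same homogenates, so their calls are no support for a difference. In IP the log2 difference of the beta globin genes was 4.45 ± 0.30 (SE) for Hbb-bt and 3.89 ± 0.28 for Hbb-bs, and the alpha globin genes Hba-a1 and Hba-a2 differed by 3.88 ± 0.28 and 3.64 ± 0.30. Slc4a1 was at 11.7 CPM in control IgG 3 and at 8.69, 2.27 and 6.77 CPM in 6-3-A6 1, 2 and 3, against 0 to 0.533 CPM. The classes were apart for each of these genes, as for 1.35% of genes tested in the higher direction.

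Apol11b was at 4.69, 4.53, 1.04 and 2.06 CPM in control IgG 3 and 6-3-A6 1, 2 and 3 of the IP fraction and at or under 0.168 CPM elsewhere, where no library held more than 3 of its reads. Slc4a1 and Apol11b entered the IP test only through the globin-high libraries, so their calls are no support for a difference and no fold or p is given for them. Trim10 was not tested in IP, where it ranged from 0.388 to 2.35 CPM in globin-high and from 0 to 0.337 CPM in globin-low tumors. The nearest values were 6 reads in 6-3-A6 2 and 7 reads in control IgG 2, so they were apart only after scaling to library size. Of 12 erythroid genes tested in IP, 3 were called, 6 had an unadjusted p under 0.05, and the median was 0.45 (0.49 without 6-3-A6 4), all with the same limit. The calls outside the globin genes rested on control IgG 3, the single globin-high control tumor, since without it the 4 globin genes alone were called. Without 6-3-A6 4 the count was 70, with 11 higher and 59 lower, and without 6-3-A6 2 it was 57, with 24 higher and 33 lower. Without control IgG 4 and 6-3-A6 2, the IP libraries of least endothelial RNA, it was 16, which included 7 of the 8.

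Of 11 neutrophil genes tested in input, 8 had an unadjusted p under 0.05 (7 without 6-3-A6 4), all higher in globin-high tumors, 0 passed the adjusted test with all 10 tumors, and the median log2 difference was 1.46 (1.77 without 6-3-A6 4). The 11 genes include Retnlg, which entered the test only through the globin-high tumors. Cxcr2, the receptor that draws neutrophils along chemokine gradients, was at 20.3 CPM in control IgG 3 and at 10.6, 7.67 and 5.63 CPM in 6-3-A6 1, 2 and 3, against a lowest value of 0.989, a median of 1.51 and a highest of 4.69 CPM. The classes did not overlap, and its log2 difference was 2.58 ± 0.42 (adjusted p = 0.0693, and 0.0376 without 6-3-A6 4). S100a8, a calprotectin subunit of neutrophils, was at 58.4, 31.1, 28.5 and 9.48 CPM against 1.98 to 11.1 CPM. For S100a8 the classes overlapped through 6-3-A6 3, which fell below control IgG 4, and the adjusted p was 0.0899, or 0.033 without 6-3-A6 4.

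Mmp8, the neutrophil collagenase, was at 11.0 to 30.8 CPM in globin-high and 5.23 to 9.16 CPM in globin-low input, and Retnlg, a resistin-like protein of neutrophils, at 0.650 to 8.71 CPM and 0.371 to 1.28 CPM. Mmp8 passed the test when 6-3-A6 4 was left out (adjusted p = 0.0276). For Retnlg the values are a description, and no fold or p is given. With Retnlg counted, 4 of 11 neutrophil genes were called without 6-3-A6 4, beside 0.231% of all genes. In every one of these 4 genes control IgG 3 had the highest value. In IP, Cxcr2 and S100a8 differed by 2.41 ± 0.85 and 2.45 ± 0.50, with adjusted p of 0.414 and 0.234, and the list's median was 0.59, or 0.31 without 6-3-A6 4. Platelet genes could be tested for 4 of 10 members, with a median of 0.65 (0.69 without 6-3-A6 4) and 2 unadjusted p under 0.05 in both fits. Ppbp, a platelet chemokine, was at 2.05 to 3.76 CPM against 0.221 to 1.99 CPM (adjusted p = 0.218, and 0.0631 without 6-3-A6 4), and Pf4, also a platelet chemokine, at 57.0 to 89.5 CPM against 47.2 to 88.1 CPM. The summed neutrophil list was at 112.5 to 329.3 CPM in globin-high and 56.6 to 126.9 CPM in globin-low input, and the part of neutrophil and red cell content in the other differences was not tested. The level of a cell type's transcripts in a homogenate cannot tell apart fewer cells from less RNA per cell, which holds for each of the lists given here.

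With all 10 tumors the 17 tested genes of hypoxia and glycolysis had a positive log2 difference in input, 11 had an unadjusted p under 0.05 (10 without 6-3-A6 4), 0 passed the adjusted test, and the median was 0.74 (0.71 without 6-3-A6 4). Without 6-3-A6 4, Pfkfb4, an enzyme that sets the level of a glycolytic activator, was at -0.38. In IP, 16 of 17 were positive, and the median was 0.57 (0.78 without 6-3-A6 4). Car9, carbonic anhydrase 9, was at 76.2 CPM in control IgG 3 and at 68.7, 38.5 and 62.5 CPM in 6-3-A6 1, 2 and 3, against a lowest value of 7.10, a median of 21.0 and a highest of 41.5 CPM. The classes overlapped only in 6-3-A6 2 and control IgG 4. Car9 differed by 1.82 ± 0.33 (adjusted p = 0.0693) and was the 1 list member called without 6-3-A6 4 (1.54 ± 0.30, adjusted p = 0.0428).

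Bnip3, a mitochondrial outer membrane protein that promotes mitophagy, was at 28.8 to 61.5 CPM in globin-high and 5.60 to 21.4 CPM in globin-low input, with no overlap. Slc2a1, the glucose transporter GLUT1, was at 26.4 to 45.7 CPM and 6.62 to 28.8 CPM, and P4ha1, a collagen prolyl hydroxylase subunit, at 222 to 325 CPM and 124 to 248 CPM. Their adjusted p were 0.0911, 0.0911 and 0.111, and 0.051, 0.0839 and 0.0889 without 6-3-A6 4. The summed level of the list was 3050 to 4034 CPM in globin-high and 1242 to 2988 CPM in globin-low input, which did not overlap.

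Outside these lists, Gnao1, the alpha subunit of the G protein Go, was at 147, 120, 123 and 118 CPM in control IgG 3 and 6-3-A6 1, 2 and 3, and between 47.8 and 85.4 CPM in globin-low input (log2 difference 1.05 ± 0.15, adjusted p = 0.0592, and 0.0276 without 6-3-A6 4). Nos2, inducible nitric oxide synthase, was at 28.3, 20.6, 15.4 and 27.0 CPM against 2.42 to 9.87 CPM (2.38 ± 0.40, adjusted p = 0.0693, and 0.0433 without 6-3-A6 4). Among 6 tested genes of nitric oxide and guanylate cyclase, 1 was higher at an unadjusted p under 0.05, Nos2, and 1 lower, Prkg1, a cGMP-dependent protein kinase, at a log2 difference of -1.49 (-0.63 without 6-3-A6 4, where 0 were lower). The list's median was -0.23, or 0.09 without 6-3-A6 4. Lcn2, a siderophore-binding protein of neutrophils and epithelium, was at 65.5, 57.5, 28.7 and 46.9 CPM against 5.51 to 24.4 CPM (adjusted p = 0.0693, and 0.0433 without 6-3-A6 4). It stood on the heme and iron list, whose median over 21 genes was 0.06 (0.14 without 6-3-A6 4). Hmox1, heme oxygenase 1, which degrades heme, was at 101 to 206 CPM in globin-high and 36.8 to 231 CPM in globin-low input. Aqp1, a water channel of red cells and endothelium chosen after its values were seen, was at 622, 608, 422 and 360 CPM against 61.3 to 307 CPM (adjusted p = 0.106, and 0.0433 without 6-3-A6 4).

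**Figure D4:**
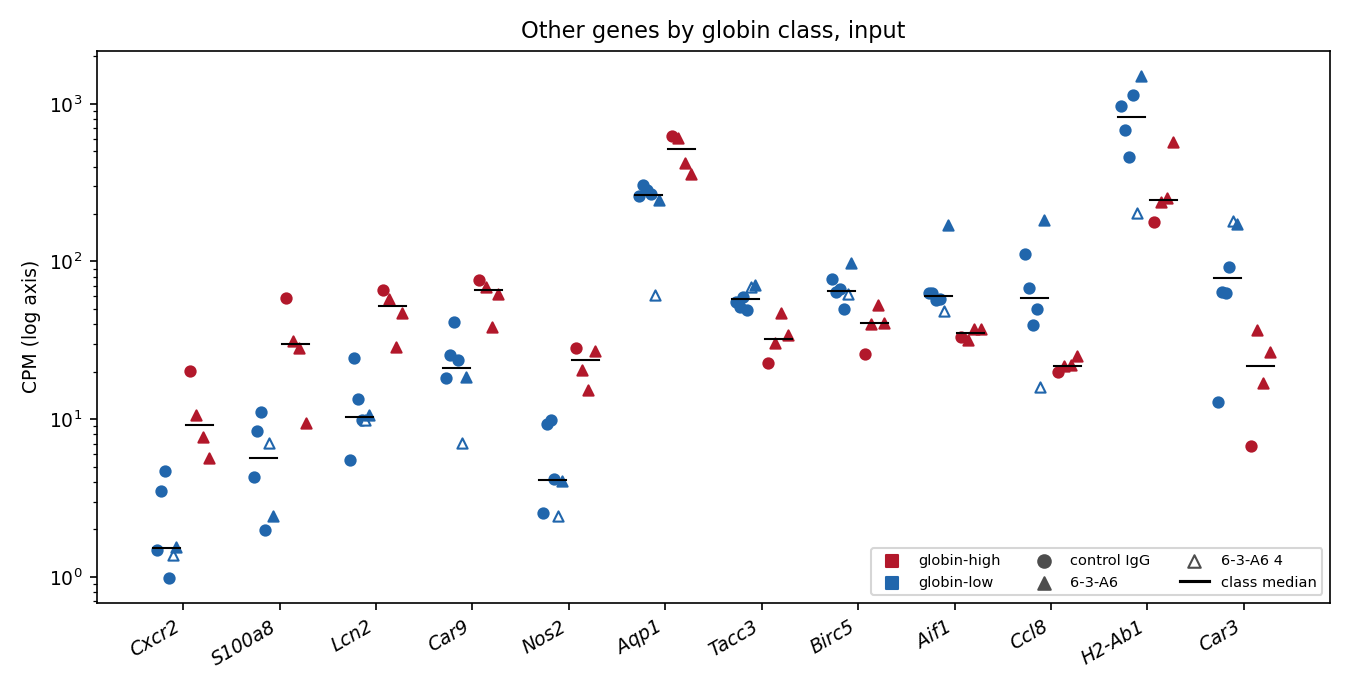
CPM on a log axis in the 10 input libraries for 12 genes other than globin, with globin-high tumors in red, globin-low in blue, control IgG as circles, 6-3-A6 as triangles, 6-3-A6 4 as an open triangle and black bars for class medians. Cxcr2, Lcn2, Nos2 and Aqp1 are apart upward and Tacc3 and Aif1 downward, whereas H2-Ab1 and Car3 overlap, the former through 6-3-A6 4 and 6-3-A6 3.

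With all 10 tumors the 18 tested proliferation genes had a negative log2 difference in input, 9 with an unadjusted p under 0.05 (11 without 6-3-A6 4) and 0 with an adjusted p under 0.05. Their median was -0.52 (-0.61 without 6-3-A6 4), and in IP it was -0.61 (-0.62 without 6-3-A6 4). Birc5, survivin, was at 25.8 CPM in control IgG 3 and at 40.4, 52.8 and 40.7 CPM in 6-3-A6 1, 2 and 3, against a lowest value of 50.1, a median of 65.3 and a highest of 97.8 CPM. The overlap came from 6-3-A6 2 and control IgG 5. Birc5 differed by -1.11 ± 0.20 (adjusted p = 0.0693) and was called without 6-3-A6 4 (-1.24 ± 0.18, adjusted p = 0.0276).

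Rrm2, a subunit of ribonucleotide reductase, ranged from 22.5 to 46.8 CPM in globin-high and from 39.8 to 60.7 CPM in globin-low input, and Cdk1, the kinase of mitotic entry, from 36.9 to 69.7 CPM and from 64.3 to 87.3 CPM. Pcna, the sliding clamp of DNA replication, was at 39.5 to 64.0 CPM against 59.0 to 74.5 CPM. None of these 3 passed the test, with or without 6-3-A6 4 (adjusted p = 0.0573, 0.0607 and 0.127 without it). Tacc3, a protein of the mitotic spindle outside the list, was at 22.8, 30.3, 46.8 and 34.4 CPM against 49.5 to 71.2 CPM, and its classes did not overlap (-1.14 ± 0.17, adjusted p = 0.0592, and 0.033 without 6-3-A6 4). Only 0.838% of the genes tested were apart in this direction.

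Adipocyte transcripts had the lowest median of the lists in input, at -2.04 over 10 genes (-2.45 without 6-3-A6 4), with 9 unadjusted p under 0.05 in both fits, all lower. Car3, carbonic anhydrase 3, abundant in fat, was at 6.71 CPM in control IgG 3 and at 36.6, 17.0 and 26.6 CPM in 6-3-A6 1, 2 and 3, against a lowest value of 12.9, a median of 78.0 and a highest of 181 CPM. Plin1, the lipid droplet coat protein perilipin 1, was at 0.799 to 1.74 CPM against 0.424 to 11.9 CPM, and Fabp4, a fatty acid carrier, at 20.6 to 35.1 CPM against 14.9 to 174 CPM. The overlap in these genes came from control IgG 1, a globin-low tumor with as little adipocyte RNA as the globin-high tumors, while 6-3-A6 4 and 5 had the most Car3 and Plin1. Car3 differed by -2.97 ± 0.49 (adjusted p = 0.0693, and 0.0428 without 6-3-A6 4), and Lep, leptin, by -2.06 ± 0.54 (adjusted p = 0.119, and 0.0573 without 6-3-A6 4).

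Of the macrophage and dendritic cell lists, with 14 and 7 genes tested in input, 0 passed the adjusted test with all 10 tumors and 1 each, Aif1 and Clec9a, passed as lower without 6-3-A6 4. Aif1, the macrophage protein IBA1, was at 33.0, 31.8, 37.2 and 37.5 CPM in control IgG 3 and 6-3-A6 1, 2 and 3, against a lowest value of 48.6, a median of 60.8 and a highest of 171 CPM, with no overlap (adjusted p = 0.0911, and 0.033 without 6-3-A6 4). Clec9a, a receptor of cross-presenting dendritic cells, was at 1.44, 1.74, 1.94 and 0.975 CPM against 3.13 to 5.67 CPM (adjusted p = 0.0899, and 0.0428 without 6-3-A6 4). The list medians in input were -0.40 and -0.64 (-0.51 and -0.75 without 6-3-A6 4), with 2 and 3 unadjusted p under 0.05 (7 and 3 without 6-3-A6 4), all lower. Marco, a macrophage scavenger receptor, was at 0.490 to 1.90 CPM in globin-high and 1.44 to 13.0 CPM in globin-low input (adjusted p = 0.105, and 0.0721 without 6-3-A6 4).

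The class II genes, which present peptides to CD4 T cells, were chosen after their values were seen. H2-Ab1, a class II beta chain, was at 179 CPM in control IgG 3 and at 238, 253 and 573 CPM in 6-3-A6 1, 2 and 3. The globin-low tumors were at 202 CPM in 6-3-A6 4 and between 458 and 1503 CPM in the other 5, so the classes overlapped through 6-3-A6 4 and through 6-3-A6 3, which exceeded control IgG 4. With all 10 tumors its log2 difference was -1.65 (adjusted p = 0.172), and without 6-3-A6 4 it was -2.14 ± 0.39 (adjusted p = 0.0409).

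Cd74, the invariant chain that guides class II molecules, was at 549, 747, 801 and 1597 CPM in globin-high input, at 387 CPM in 6-3-A6 4 and between 1231 and 3823 CPM in the other 5 globin-low tumors. Cd74 did not pass the adjusted test with all 6-3-A6 tumors kept. Without 6-3-A6 4 its log2 difference was -1.88 ± 0.34 (adjusted p = 0.0418). H2-Aa, H2-Eb1, H2-DMa, H2-DMb1 and H2-DMb2 were also among the 93 genes lower without 6-3-A6 4, as were Itgax, the integrin CD11c of dendritic cells, and the chemokine Ccl8. Ccl8 was at or under 25.0 CPM in each globin-high tumor against 39.8 to 183 CPM in globin-low tumors other than 6-3-A6 4, where it was at 16.1 CPM. In IP, H2-Ab1 differed by -2.19 ± 0.51 with an adjusted p of 0.28, and by -2.63 ± 0.31 with an adjusted p of 0.00774 without 6-3-A6 4. H2-Aa, H2-Eb1, H2-DMa, H2-DMb1, Cd74, Itgax and Ccl8 were also called lower in IP without that tumor.

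With all 10 tumors the 12 tested T and NK cell genes had a negative log2 difference in input, with a median of -1.04 (-1.20 without 6-3-A6 4) and 7 unadjusted p under 0.05 (9 without 6-3-A6 4), and Gzmb, the protease granzyme B, was at 0.05 without 6-3-A6 4. The IP median was -1.25 (-1.49 without 6-3-A6 4). None passed the test in input, with or without 6-3-A6 4. Cd4 was at 4.38 to 13.2 CPM in globin-high and 7.56 to 20.8 CPM in globin-low input, and Cd3e, a T cell receptor component, at 4.30 to 11.2 CPM and 5.58 to 39.3 CPM. Cd8a had 1017 counts in input of 6-3-A6 5, against 115 to 374 in other globin-low and 211 to 411 in globin-high tumors. Nkg7 had 513 counts there, against 15 to 107 and 56 to 150. List medians without 6-3-A6 5 were not computed. Fibroblast genes had a median of -0.75 over 11 genes (-0.62 without 6-3-A6 4), with 5 lower and 1 higher at an unadjusted p under 0.05 (4 and 1 without 6-3-A6 4). Col1a1, a chain of type I collagen, was at 212 to 459 CPM against 287 to 1744 CPM, and Pdgfra, the platelet-derived growth factor receptor alpha, at 95.5 to 129 CPM against 61.0 to 101 CPM. Endothelial genes had a median of 0.34 over 19 genes, which became -0.06 without 6-3-A6 4, and the IP median was 0.07, or 0.35 without 6-3-A6 4. At an unadjusted p under 0.05, 3 endothelial genes were higher in input (4 without 6-3-A6 4). The Notch list had a median of 0.22 over 11 genes (0.12 without 6-3-A6 4) and -0.01 in IP (-0.14 without 6-3-A6 4). Notch4, the target of 6-3-A6, was at 5.31 to 7.99 CPM in globin-high and 2.02 to 6.06 CPM in globin-low input (adjusted p = 0.304, and 0.348 without 6-3-A6 4).

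**Figure D5:**
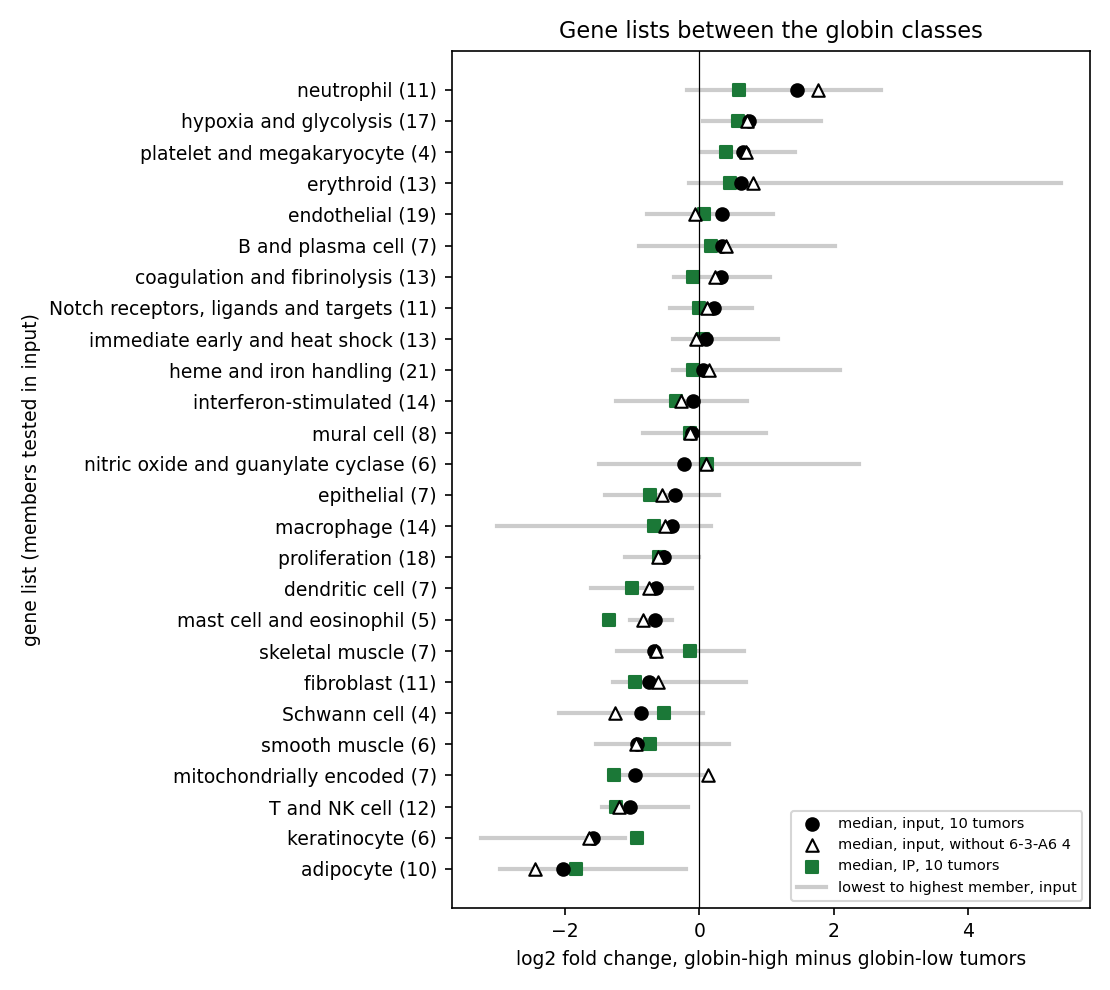
Median log2 fold change (globin-high minus globin-low) of each gene list with 4 or more tested members, for input with all 10 tumors (black circles), input without 6-3-A6 4 (open triangles) and IP (green squares), and the range of its members in input (gray bars). Neutrophil, hypoxia and erythroid genes have the medians 1.46, 0.74 and 0.62 in input, and adipocyte genes -2.04. The erythroid and neutrophil medians include genes that were tested only through the globin-high tumors. The median over all genes was -0.02.

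The remaining genes named by rank in input, all lower in globin-high tumors, were Htr7, a serotonin receptor, at 3.28 to 8.06 CPM against 10.3 to 20.3 CPM (-1.70 ± 0.26, adjusted p = 0.0592, and 0.0276 without 6-3-A6 4), Bcl2a1a, a BCL2 relative with near-identical copies whose reads cannot be assigned with certainty, at 7.73 to 12.4 CPM against 17.0 to 33.8 CPM, and the predicted gene Gm34084, at 0.879 to 3.19 CPM against 2.59 to 11.3 CPM. A further predicted gene, Gm47283, is placed on chromosome Y, although the mice were female, and was at 352 CPM in 6-3-A6 4 against 14.0 to 113 CPM elsewhere.

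With all 10 tumors 0 of 13893 genes passed the adjusted test as lower in IP, and without 6-3-A6 4 it was 59. With all 10, 1364 (9.82%) had an unadjusted p under 0.05 in edgeR, 841 (6.05%) lower and 523 (3.76%) higher, and DESeq2 and limma voom called 83 and 149 lower. Hs3st3b1, a heparan sulfate sulfotransferase, was at 7.63 CPM in control IgG 3 and at 6.10, 7.70 and 8.52 CPM in 6-3-A6 1, 2 and 3, against a lowest value of 15.0, a median of 15.7 and a highest of 18.2 CPM. The classes did not overlap, as for 1.35% of genes tested in the lower direction. The log2 difference was -1.06 ± 0.18, with an adjusted p of 0.109. Oxtr, the oxytocin receptor, was at 0.0587 to 0.135 CPM against 0.253 to 2.17 CPM, and Ly6d, a surface protein of the Ly6 family, at 0.176 to 0.404 CPM against 1.01 to 1.87 CPM. Both passed the filter on low counts only through globin-low libraries, so their values are a description and no fold or p is given. Ube2c, a ubiquitin-conjugating enzyme of mitotic exit, was at 26.7 to 58.7 CPM against 60.1 to 117 CPM (adjusted p = 0.159 with all 10). Mtfr2 and Spc25 were the other genes of lowest p, with log2 differences of -1.27 and -1.08.

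Whether the difference between the classes itself differed between IP and input was tested with an interaction term across all 20 libraries with the tumor as a block. Of 14767 genes, 0 (0%) passed the adjusted test in edgeR, the smallest adjusted p was 0.307, and 607 (4.11%) had an unadjusted p under 0.05, for 365 (2.47%) the difference was more positive in IP and for 242 (1.64%) in input. Other tools were not run on this term, and 59 genes passed in edgeR when the filter on low counts was dropped. Prkch, a protein kinase C isoform, had the lowest p, with a log2 difference of -1.94 in input (-1.84 without 6-3-A6 4) and 0.93 in IP. Fabp4, which capillary endothelium expresses as well as adipocytes, was at -2.01 in input (-1.78 without 6-3-A6 4) and 0.45 in IP (interaction 2.33 ± 0.44, adjusted p = 0.459). Lamb2, a laminin chain, stood in the opposite direction, at 0.74 in input (0.33 without 6-3-A6 4) and -0.58 in IP (adjusted p = 0.993).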

How the data were processed

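Input and IP RNA of 10 tumors was sequenced. Per the labels and the submitters' processing notes, reads were aligned with STAR 2.7.4a and counted on genes with featureCounts (2.0.1 and 1.5.2 are both named), and mm10 and GRCh38 are listed as builds. The authors deposited raw counts for 55866 genes (2693 by identifier only) in 20 libraries. Counts covered whole gene spans, introns included, and how strand and overlaps were treated is not given in the sources used here. Of 38891 genes matched by symbol, 426 shared a start or end with GRCm38.p6, so positions are given for the RefSeq promoters only, and 13 listed genes were at 0 throughout, 9 of them at least 90% inside another gene. The authors' DESeq2 table of 3 against 3 IP libraries, with fold changes, p-values and normalized counts in 6 IP columns, was not used. Some genes that the rule names are not reported here. For the 6-3-A6 samples the description and the title disagree on the fraction, and the title was followed.

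Counts were analysed in R 4.3.3 with edgeR 4.0.16 (TMM factors, genes kept by filterByExpr, treatment as covariate, quasi-likelihood F test with p-values adjusted after Benjamini and Hochberg, threshold 0.05), and prior count 2 was used for log2 CPM. The 4 globin genes were left out of the adjustment in input. Tests across genes were checked on simulated data. Alternatives were DESeq2 1.42.0, limma 3.58.1 (voom, sample weights), RLE factors, no filter, the globin level as a continuous term, no covariate, each treatment alone, a block, globin counts removed and each tumor left out. Single values were compared by exact permutation.

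The classes, the 28 gene lists and the rule for named genes were chosen with earlier results of these data known. Up to 4 genes of lowest p per list were named and, per comparison and direction, the called genes of largest change or, with fewer than 5 calls, the 6 of lowest p. Trim10, Epb42 and factors of erythroid precursors stand for the erythroid list, and other genes named outside the rule are marked where they appear or are the checks Pecam1, Notch4, Pf4 and Hmox1. Floors cover counting error only, whereas SD values give the spread between tumors and SE values come from the fits, which include that spread. No source says whether tumors of a group came from separate litters, so p-values measure the spread between these tumors. The 40 pairs of libraries within a group and fraction differed by more than sampling noise (lowest median chi-square 2.23, expected 0.455).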

Additional observations from a re-analysis of the deposited data

Results flagged for a closer look

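Of 74 groups of values examined for a sample far from the others, 8 held one, where chance alone marks about 1 in 20. In 6-3-A6 4 input 38.19% of counts were mitochondrially encoded, against 13.09% in the next globin-low library, and it held 29.53 Hbb-bs counts per Hbb-bt count, against 10.32. Control IgG 4 had the highest mitochondrial share of globin-low IP, at 11.29% against 4.695%. In globin-high IP, 6-3-A6 3 had the most counts, 21620000 against 16560000, and the lowest log2 CPM of Hbb-bt (5.626 against 6.189) and Hba-a2 (4.842 against 5.589). Oxtr was lowest in control IgG 3 among globin-high IP (-2.569 against -2.117) and in control IgG 1 among globin-low IP (-1.463 against 0.2572), at levels of few reads.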

How the results depend on the processing

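Genes called in input numbered 0 with edgeR, 548 with no filter on low counts, 431 with the globin level as a continuous term, 714 with DESeq2, 29 with limma voom, and 0 to 125 with a tumor left out, where 125 was without 6-3-A6 4. Alternatives chosen after seeing the data gave 8 (the 4 globin genes included in the adjustment) and 11 (mitochondrial share as a covariate). Calls in IP numbered 8, and 175 with no filter, 125 with DESeq2, 243 with limma voom, 14 without the covariate, 1 within 6-3-A6, 5 within control IgG, 4 with globin counts removed, 16 without control IgG 4 and 6-3-A6 2 (chosen after seeing the data), and 4 to 70 with a tumor left out. The interaction called 0, or 59 with no filter. The cause of these differences was not tested. Apart from the replicate block given below, unlisted alternatives left the counts within 1.5 times.

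In input without 6-3-A6 4 the median changed sign for the endothelial (0.34 to -0.06), nitric oxide (-0.23 to 0.09), immediate early and heat shock (0.10 to -0.05) and mitochondrially encoded lists (-0.96 to 0.13), and the input difference of Ptprn went from 0.13 to -0.03. The fold change or interaction of each gene named by rank kept its direction in every alternative run. Of these and of list medians under RLE factors, 628 values stayed on their side of the threshold or within their error, 110 passed the threshold and 17 lost it. The globin difference by treatment was 0.7246 to 2.218 (exact permutation p from 0.1111 to 0.6746) with a tumor left out, and that between classes in IP 3.833 to 4.14. Samples of equal replicate number had correlations of -0.362 to 0.263 in input and -0.204 to 0.394 in IP, highest for number 3 in both. Pairing of tumors across treatments was thus not shown and not excluded. A replicate block gave 0 calls in input and 5 in IP. With 1 globin-high control tumor, class within control IgG rests on that tumor. Genes under about 0.25 CPM could not be measured at this depth.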

Other observations

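In input, B and plasma cell genes had a median log2 difference of 0.33 over 7 genes (0.40 without 6-3-A6 4) with 2 higher at an unadjusted p under 0.05 (1 higher and 1 lower without 6-3-A6 4), and Jchain, the joining chain of secreted antibodies, was at 10.7 to 18.1 CPM in globin-high and 1.06 to 12.2 CPM in globin-low input. Coagulation genes had a median of 0.32 over 13 genes (0.23 without 6-3-A6 4), with F13a1, the factor XIII subunit of macrophages and platelets, at 175 to 208 CPM against 45.6 to 174 CPM. Immediate early and heat shock genes had a median of 0.10 over 13 genes (-0.05 without 6-3-A6 4), and Hspa1b, an inducible HSP70, was at 9.99 to 12.2 CPM against 4.19 to 6.62 CPM with no overlap. Interferon-stimulated genes had a median of -0.09 over 14 genes, mural cell genes -0.10 over 8, epithelial genes -0.36 over 7, mast cell and eosinophil genes -0.66 over 5, skeletal muscle genes -0.68 over 7, Schwann cell genes -0.87 over 4, smooth muscle genes -0.93 over 6 and keratinocyte genes -1.58 over 6. Without 6-3-A6 4 these medians were -0.28, -0.14, -0.56, -0.84, -0.64, -1.26, -0.95 and -1.65, in the same order, with 8 skeletal muscle, 3 Schwann cell and 5 keratinocyte genes tested in that fit. Mitochondrially encoded genes had a median of -0.96 over 7 genes, and 0.13 without 6-3-A6 4. In each of these lists 0 genes passed the adjusted edgeR test, with or without 6-3-A6 4.

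Among genes of lowest p for the interaction of fraction and class, the log2 differences of Hdac9 and Npr3 were -2.33 and -2.05 in input (-2.16 and -1.96 without 6-3-A6 4) and 0.51 and 0.38 in IP. Shank2 and Pla2g2d, at 1.30 and 0.50 in IP, had too few counts to be tested in input without 6-3-A6 4. They entered the input test only with that globin-low tumor, so no input difference is given for them. Thbd, Gm49528, Pi16 and Ptprn were at 0.42, 0.82, 0.57 and 0.13 in input (0.25, 0.61, 0.16 and -0.03 without 6-3-A6 4) and at -0.64, -0.64, -0.66 and -0.78 in IP. Igha, the IgA heavy chain, was at 2.86 in input (2.17 without 6-3-A6 4) and 0.74 in IP. None passed the adjusted test of the interaction.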
